A study of Mus musculus with 12 samples.

Results

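The genes described here are 10 of the 58735 genes in the deposited expression table, and they make up the core of transforming growth factor beta (TGF-beta) signalling: the ligand genes TGFB1, TGFB2 and INHBA, the receptor genes TGFBR1 and TGFBR2, the signal transducers SMAD2, SMAD3 and SMAD4, the inhibitory SMAD7, and TGFBI, a matrix protein gene named for its induction by TGF-beta. The table names genes by Ensembl identifier and full name only, so each member was found by its full name, and each name matched exactly 1 gene. All 10 had a mean level of at least 0.5 FPKM and were tested. The members were selected on the FPKM differences between these groups, with results of these libraries already known, so their values are a description of these libraries and not a test of the choice.

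The study measured RNA in U2OS cells, a human osteosarcoma line, to ask which transcripts respond when SRSF1, a serine and arginine rich splicing factor, is reduced by small interfering RNA (siRNA). The 12 libraries form 4 groups of 3: blank U2OS cells, cells given siSRSF1-2, cells given siSRSF1-3 (both siRNAs against SRSF1), and OE-LINC01134 cells, in which the long intergenic RNA LINC01134 was overexpressed. All of them are of the same line. The samples include no cells given a control siRNA, and transfection and loss of SRSF1 therefore cannot be told apart in any difference from the blank cells. The same blank libraries serve all 3 comparisons with blank, the construct for LINC01134 is not given in the sources used here, and the methods speak of biological replicates, fewer per condition than the libraries here. Whether the libraries came from separate cultures is therefore not clear, and the p-values measure only the spread between these libraries, which may be technical. Values are FPKM, the fragments per kilobase of gene, scaled for library size by the authors.

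TGF-beta ligands are secreted in a latent complex with latent TGF-beta binding proteins and are released in the matrix. The active ligand brings type II and type I receptor kinases together, which phosphorylate SMAD2 and SMAD3, and these join SMAD4 and enter the nucleus to act on target genes. SMAD7 and SMAD6 are induced by the pathway and feed back on it. In bone, the ligands are stored in the matrix and take part in the control of bone-forming and bone-resorbing cells.

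The libraries held 26237763 to 32954539 reads on genes. SRSF1 itself had FPKM of 35.9, 19.8 and 20.5 in blank cells, 7.09, 7.46 and 7.41 with siSRSF1-2, 3.33, 6.81 and 7.90 with siSRSF1-3 and 31.8, 29.6 and 30.3 in OE-LINC01134. LINC01134 lay at 891, 1279 and 878 FPKM in OE-LINC01134 and between 0.497 and 1.11 FPKM elsewhere. Both checks followed the labels in direction. With siSRSF1-3 the log2 fold change of SRSF1 against blank cells was -2.09, with a Benjamini-Hochberg adjusted p of 0.0518 from limma. This is short of the threshold of 0.05 used below, so a gene not called with siSRSF1-3 is not thereby shown to be unchanged. Of 7 mesenchymal and bone markers, VIM, SPARC, COL1A1 and FN1 were each above 10 FPKM in every library, while COL1A2 stayed at or below 0.0131 FPKM. The summed FPKM of these markers was 351 to 473 in blank cells, 194 to 199 with siSRSF1-2, 177 to 264 with siSRSF1-3 and 183 to 411 in OE-LINC01134. The 3 epithelial markers summed to 2.92 to 2.99 FPKM with siSRSF1-3 and to 1.60 to 2.31 FPKM in the other groups. The blood marker CD3E was at 0 in every library and the highest summed level of the endothelial markers was 0.558 FPKM. The part of these marker levels in the results was not tested.

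Several libraries stood apart from their own group. A chi-square per gene near 1 would mean that a pair of libraries differ by counting noise alone. It was 3.13 between blank replicates 2 and 3, but 82.1 and 86.8 between these and blank replicate 1, and it was 2.26 between OE-LINC01134 replicates 1 and 3, but 84.9 and 87.5 between these and replicate 2. Blank replicate 1 was nearer to OE-LINC01134 replicate 2 (57.7) than to the other blank libraries. The siSRSF1-2 libraries were alike (2.85 to 3.62). The siSRSF1-3 libraries were far from each other (116 to 405), and replicate 3 was nearer to the siSRSF1-2 libraries (38.5 to 51.8) than to its own group (153 and 405). Where leaving out a library changed the call of a member, the value without it, or the range over such fits, is given with the result.

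In the blank cells the members spanned from 1.43 to 62.1 FPKM in single libraries. The order by mean FPKM was TGFB1 (59.4 ± 2.34, SD, n = 3), TGFBR2 (22.2 ± 4.99), INHBA (13.5 ± 1.21), SMAD3 (11.7 ± 0.467), TGFBI (10.1 ± 3.51), TGFBR1 (6.89 ± 0.149), SMAD7 (6.35 ± 1.11), TGFB2 (2.83 ± 2.38), SMAD4 (2.29 ± 0.316) and SMAD2 (2.11 ± 0.0861). TGFB1, TGFBR2 and INHBA were each separated from the gene ranked next by all 3 libraries, and from SMAD3 down every neighbour in the order overlapped with the next. FPKM is per length, and the gene length in the table matters for this order: SMAD2 is given 36366 bases and SMAD3 9113 bases, and the blank libraries held 2023 to 2574 reads on SMAD2 and 2960 to 3325 on SMAD3. TGFB1 and TGFBR2 kept ranks 1 and 2 by mean in all 4 groups, though TGFBR2 overlapped with INHBA with siSRSF1-3. SMAD3 was at rank 4 in blank cells, rank 6 with siSRSF1-2, rank 4 with siSRSF1-3 and rank 3 in OE-LINC01134. TGFBI went from rank 5 to rank 10 with siSRSF1-2, rank 9 with siSRSF1-3 and rank 10 in OE-LINC01134. Neighbours in the order did not overlap with siSRSF1-2. With siSRSF1-3 SMAD3 overlapped with TGFBR1 and TGFBI with TGFB2, and in OE-LINC01134 TGFBI overlapped with SMAD2, so these ranks are not resolved by the libraries.

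**Figure D1:**
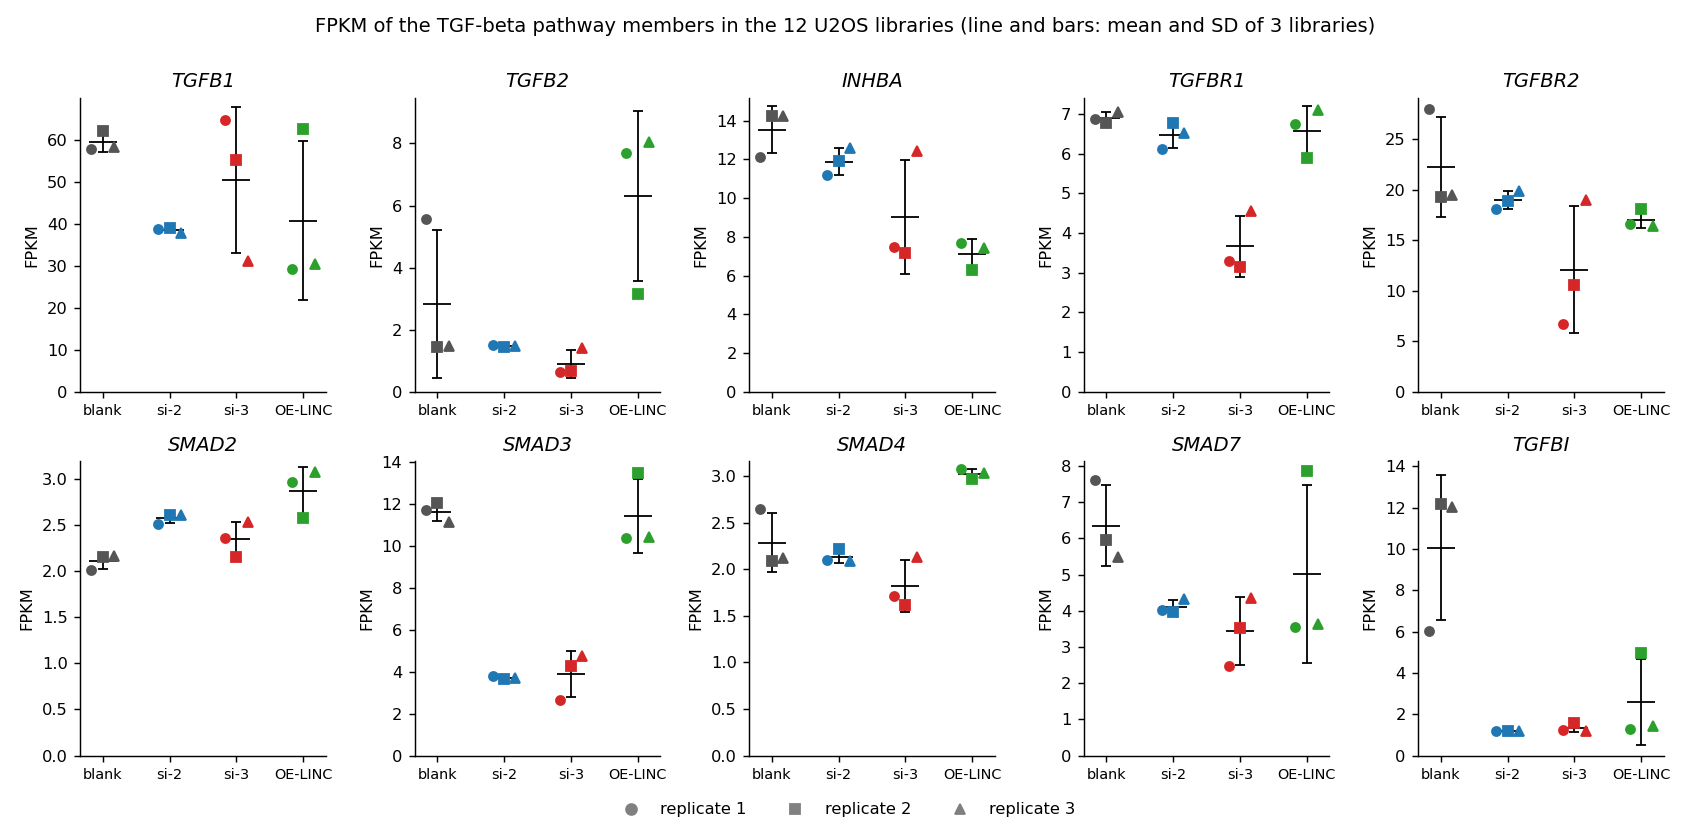
Each panel plots 1 member, with FPKM on a linear vertical axis from 0 and the 4 groups on the horizontal axis; points are libraries, with shape for the replicate, and the line and bars give the mean and SD of 3 libraries. SMAD3 is at 2.65 to 4.75 FPKM in all 6 siRNA libraries and at 10.4 or higher in the other 6, and blank replicate 1, OE-LINC01134 replicate 2 and siSRSF1-3 replicate 3 lie away from their groups for several members.

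SMAD3 and TGFBI were the 2 members that passed the threshold, and both were lower with each siRNA. A gene was called at a Benjamini-Hochberg adjusted p under 0.05 over the 17538 genes tested with limma and an absolute log2 fold change over 1. By this rule 2 of 10 members were called with siSRSF1-2, where 4.95% of all genes tested were called and 2.73% were called lower, and 2 of 10 with siSRSF1-3, where 1.26% were called and 0.929% were called lower. In OE-LINC01134 against blank 0 of 10 were called (0.85% of all genes), and in siSRSF1-3 against siSRSF1-2 also 0 of 10 (0.0855% of all genes). With unadjusted p-values below 0.05 and the fold kept, 2, 2, 1 and 0 members passed in these comparisons by limma (6.49%, 14.8%, 7.45% and 16.4% of all genes), and by voom on the recovered reads the called members numbered 2, 2, 0 and 0. Voom called 982, 587, 348 and 110 of all genes tested. Leaving out 1 library moved the limma calls over all genes from 534 to 1188 with siSRSF1-2 and from 0 to 4184 with siSRSF1-3. The range was 1 to 1540 in OE-LINC01134 and 0 to 5358 between the siRNAs. Because the choice of the members used these comparisons, nothing is read from their share.

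SMAD3 (ENSG00000166949, chromosome 15, 67063763 to 67195195, plus strand in the table, whose human build is not named) encodes the receptor-activated SMAD that binds DNA directly. Its FPKM was 11.7, 12.1 and 11.2 in blank cells, 3.79, 3.64 and 3.71 with siSRSF1-2, 2.65, 4.29 and 4.75 with siSRSF1-3, and 10.4, 13.5 and 10.5 in OE-LINC01134. Every siRNA library lay below every blank and every OE-LINC01134 library, with no overlap. With siSRSF1-2 SMAD3 fell by 1.62 in log2 units (standard error, SE, 0.0666, adjusted p = 0.000490 from limma), to 0.324 of its level in blank cells. This call was also made in each of 6 fits with 1 library left out and in 8 of 9 other settings. It was lost when the most alike libraries were averaged and counted once (log2 fold change -1.62, adjusted p = 0.0844 from limma).

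With siSRSF1-3 SMAD3 fell by 1.60 in log2 units (SE 0.244, adjusted p = 0.0453 from limma), to 0.331 of its level in blank cells. The size was close to that with siSRSF1-2, and the difference between the siRNAs was 0.03 (SE 0.231, adjusted p = 0.932 from limma). The call with siSRSF1-3 depended on the libraries and on the processing, being made in 4 of 10 other settings. It was made in 1 of 6 fits with a library left out, that without siSRSF1-3 replicate 3 (-1.76, adjusted p = 0.0117 from limma). The adjusted p reached 0.219 without siSRSF1-3 replicate 2, while the log2 fold change stayed between -1.76 and -1.35. Of all genes tested, 4184 were called without siSRSF1-3 replicate 3. Without siSRSF1-3 replicate 2, or blank replicate 2 or 3, 0 of all genes were called. In OE-LINC01134 the log2 fold change of SMAD3 was -0.04 (SE 0.136, adjusted p = 0.891 from limma).

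TGFBI (ENSG00000120708, chromosome 5, 136028895 to 136063818, plus strand) encodes a secreted matrix protein that binds collagens and integrins. Its FPKM was 6.01, 12.2 and 12.02 in blank cells, 1.19, 1.18 and 1.18 with siSRSF1-2, 1.24, 1.57 and 1.18 with siSRSF1-3, and 1.31, 4.97 and 1.45 in OE-LINC01134. All 9 libraries outside the blank group were below the lowest blank library. The lowest blank value was from replicate 1 and the highest OE-LINC01134 value from replicate 2, the libraries that stood apart and were near each other. Reads on TGFBI ranged from 190 to 3070 per library, so counting error was small beside these differences.

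TGFBI fell by 2.91 in log2 units with siSRSF1-2 (SE 0.277, adjusted p = 0.00222 from limma) and by 2.77 with siSRSF1-3 (SE 0.311, adjusted p = 0.0356), to 0.133 and 0.147 of its level in blank cells. It had the largest log2 difference of the 10 members in each comparison with blank cells. The siSRSF1-2 call was made in 6 of 6 fits with a library left out, with log2 fold changes of -3.24 to -2.74. With siSRSF1-3 it was made in 2 of 6, without siSRSF1-3 replicate 3 and without blank replicate 1 (adjusted p = 0.0117 and 0.0403 from limma), and the range was -3.10 to -2.60. In the fits that lost it the adjusted p from limma reached 0.218. Of the other settings, 8 of 9 made the siSRSF1-2 call and 5 of 10 the siSRSF1-3 call. In OE-LINC01134 the log2 fold change was -2.12 (SE 0.534, adjusted p = 0.0843), short of the threshold. Without OE-LINC01134 replicate 2 it was -2.71 (adjusted p = 0.00990), and without that library and blank replicate 1 it was -3.04 (adjusted p = 0.000152), a setting chosen after seeing the data.

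**Figure D2:**
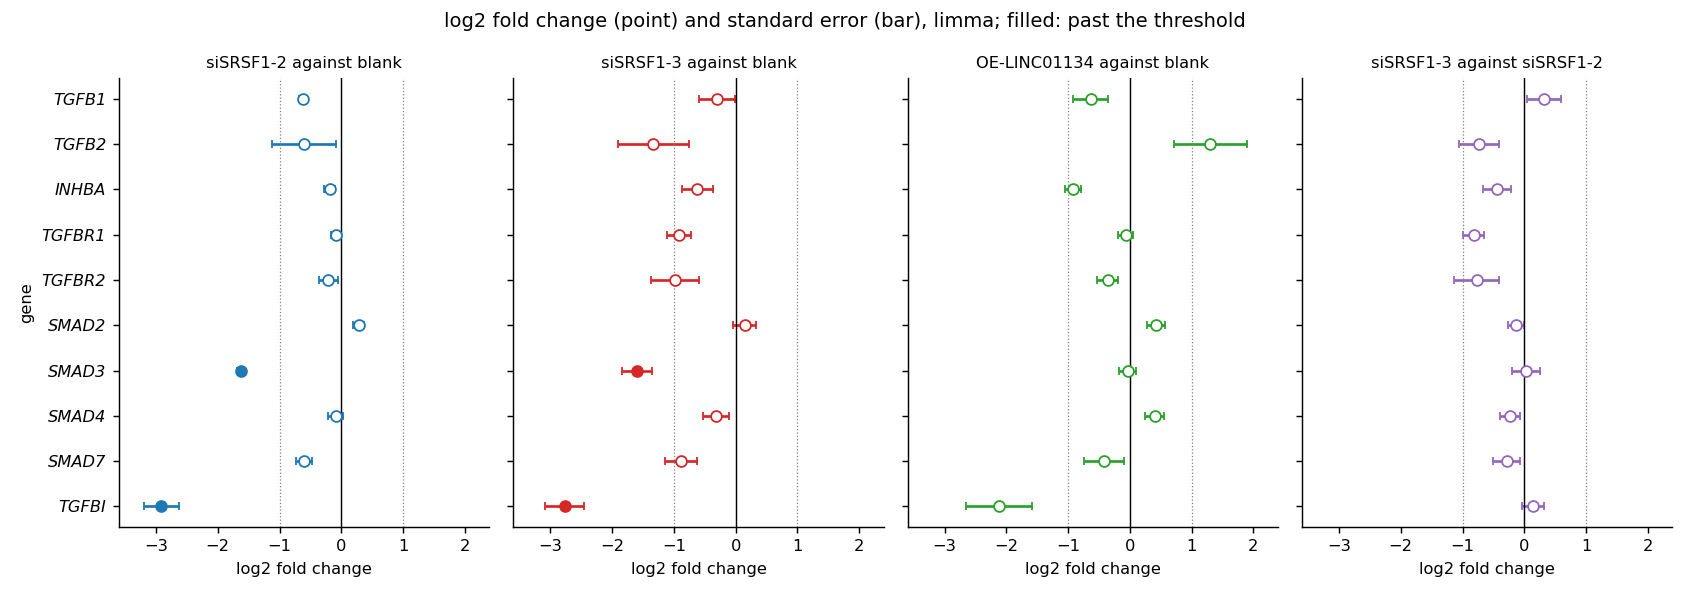
Log2 fold change of each member (horizontal axis, point) with its standard error (bar) in the 4 comparisons (panels), from limma; filled points passed the threshold and the dotted lines mark a log2 fold change of -1 and 1. The filled points are SMAD3 and TGFBI with siSRSF1-2 (-1.62 and -2.91) and with siSRSF1-3 (-1.60 and -2.77).

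Among the ligands, none passed the threshold in any of the 4 comparisons when all libraries were used. TGFB1 (ENSG00000105329, chromosome 19, 41301587 to 41353911, minus strand), the most widely expressed TGF-beta ligand, had FPKM of 57.9, 62.1 and 58.3 in blank cells and of 38.7, 39.1 and 37.8 with siSRSF1-2. The groups were tight and did not overlap, and the log2 fold change was -0.62 (SE 0.0548, adjusted p = 0.00181 from limma), which passed the p but not the fold. With siSRSF1-3 the deposited values of 64.8, 55.2 and 31.2 FPKM spanned the blank range (-0.30, SE 0.294, adjusted p = 0.50). The scaling matters here, as the library size implied for replicates 1 and 2 was 0.712 and 0.888 of their own read totals. Over the other settings the log2 fold change with siSRSF1-3 ranged from -0.75 to -0.29, never past the threshold. In OE-LINC01134 replicates 1 and 3 gave 29.2 and 30.4 FPKM and replicate 2 gave 62.5 FPKM, as high as the blank cells. The log2 fold change there was -0.64 (adjusted p = 0.215), and it was -1.01 (adjusted p = 0.000308) without OE-LINC01134 replicate 2 and blank replicate 1.

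TGFB2 (ENSG00000092969, chromosome 1, 218346235 to 218444619, plus strand) is a second ligand of the same receptors and one that needs a co-receptor for high affinity binding. Its FPKM was 5.58, 1.43 and 1.48 in blank cells, 1.501, 1.45 and 1.48 with siSRSF1-2, 0.634, 0.664 and 1.43 with siSRSF1-3, and 7.70, 3.14 and 8.06 in OE-LINC01134. Blank replicate 1 was thus the single high library of its group. Without it the log2 fold change with siSRSF1-2 went from -0.60 (adjusted p = 0.423 from limma) to 0.02 (adjusted p = 0.860), and that in OE-LINC01134 from 1.30 (adjusted p = 0.219) to 1.93 (adjusted p = 0.0491), past the threshold. Without OE-LINC01134 replicate 2 as well, it was 2.36 (adjusted p = 0.000182). With siSRSF1-3 TGFB2 was at -1.33 (SE 0.578, adjusted p = 0.179) and, without blank replicate 1, at -0.71 (adjusted p = 0.325). Replicates 1 and 2 of siSRSF1-3 held only 64 and 87 reads.

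INHBA (ENSG00000122641, chromosome 7, 41667168 to 41705834, minus strand) encodes the subunit of activin A, a related ligand that signals through its own receptors to SMAD2 and SMAD3. It had FPKM of 12.1, 14.2 and 14.2 in blank cells and of 7.69, 6.27 and 7.42 in OE-LINC01134, with no overlap. The log2 fold change was -0.92 (SE 0.132, adjusted p = 0.0402 from limma), just inside the p threshold and just outside the fold. With siSRSF1-2 the values were 11.2, 11.9 and 12.6 FPKM (-0.18, adjusted p = 0.181). With siSRSF1-3 they were 7.48, 7.18 and 12.4 FPKM (-0.62, adjusted p = 0.160), so that replicate 3 reached the blank range, and without that library the value was -0.87 (adjusted p = 0.0136).

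Neither receptor passed the threshold when all libraries were used. TGFBR1 (ENSG00000106799, chromosome 9, 99104038 to 99154192, plus strand), the type I receptor kinase that phosphorylates SMAD2 and SMAD3, had FPKM of 6.87, 6.76 and 7.05 in blank cells, 6.11, 6.76 and 6.51 with siSRSF1-2, 3.29, 3.15 and 4.55 with siSRSF1-3, and 6.74, 5.90 and 7.09 in OE-LINC01134. All 3 siSRSF1-3 libraries lay below the other 9. The log2 fold change was -0.91 against blank (SE 0.196, adjusted p = 0.0636 from limma) and -0.82 against siSRSF1-2 (SE 0.169, adjusted p = 0.0749). It was -0.09 with siSRSF1-2 and -0.07 in OE-LINC01134.

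TGFBR2 (ENSG00000163513, chromosome 3, 30606502 to 30694142, plus strand) encodes the type II receptor that binds the ligand first. Its FPKM was 28.0, 19.3 and 19.5 in blank cells, 18.1, 18.8 and 19.9 with siSRSF1-2, 6.72, 10.5 and 19.0 with siSRSF1-3, and 16.7, 18.1 and 16.4 in OE-LINC01134. Replicates 1 and 2 of siSRSF1-3 were low, while replicate 3 was within the siSRSF1-2 range. Its log2 fold change against blank was -0.98 with siSRSF1-3 (SE 0.383, adjusted p = 0.153). Without siSRSF1-3 replicate 3 it was -1.37 (adjusted p = 0.0180), past the threshold, as were TGFBR1 (-1.07, adjusted p = 0.0117) and SMAD7 (-1.07, adjusted p = 0.0222) in that setting. Against siSRSF1-2, the members past the threshold without that library were TGFBR2 (-1.16, adjusted p = 0.00698) and TGFB2 (-1.07, adjusted p = 0.00309). Of all genes tested, the fits without siSRSF1-3 replicate 3 called 4184 against blank and 5358 against siSRSF1-2. The added calls in these fits are therefore not particular to the members.

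Replicate 3 of siSRSF1-3 lay within the range of the siSRSF1-2 libraries, or within 0.05 FPKM of it, for 7 members: TGFB2, INHBA, TGFBR2, SMAD2, SMAD4, SMAD7 and TGFBI. TGFB1, TGFBR1 and SMAD3 were the exceptions. In deposited FPKM, replicate 1 held the lowest siSRSF1-3 values of SRSF1, TGFB2, TGFBR2, SMAD3 and SMAD7 and the highest of TGFB1. The last depends on the scaling, as replicate 1 held 4113 reads on TGFB1 and replicate 2 held 4544. The part of SRSF1 level in these differences was not tested.

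**Figure D3:**
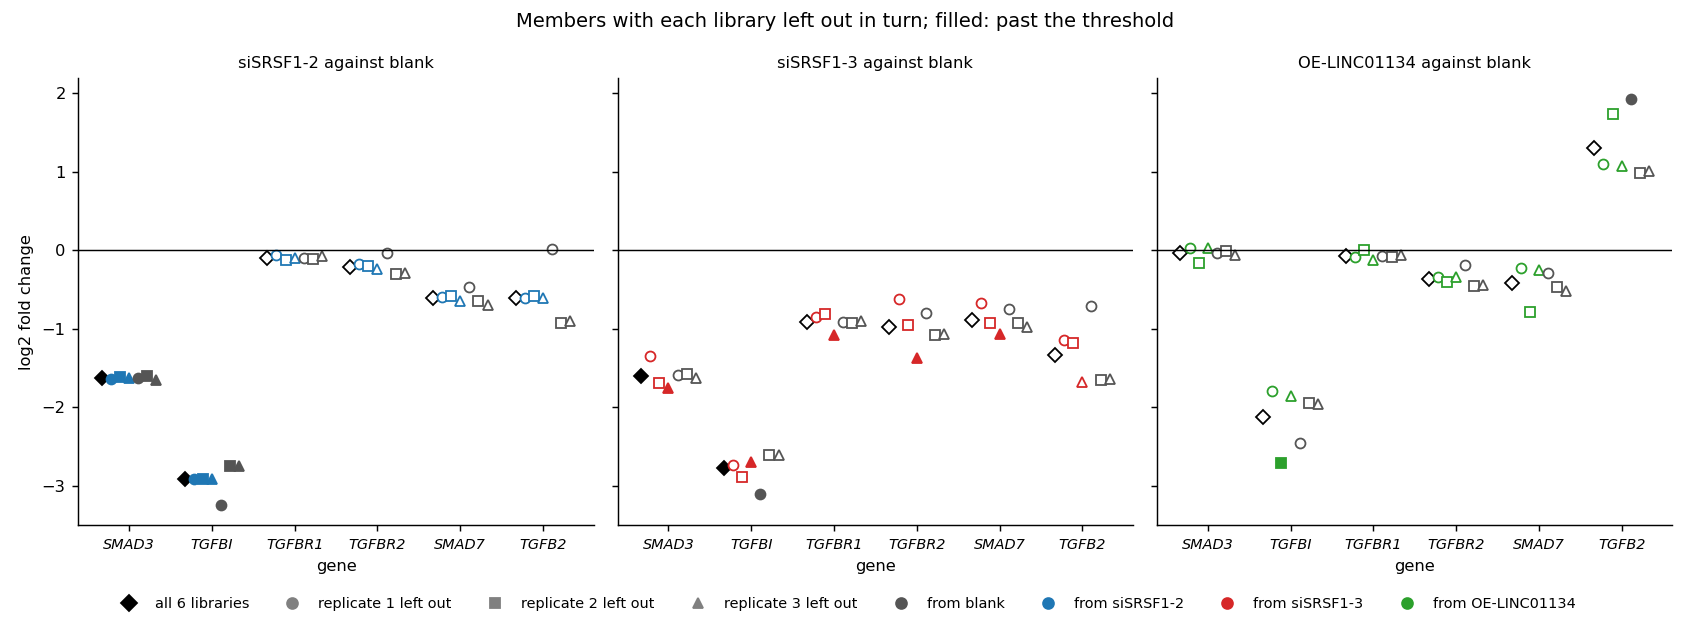
Log2 fold change (vertical axis) of 6 members against blank cells in the 3 comparisons (panels), with all 6 libraries (diamond) and with each library left out in turn (shape: replicate left out; colour: its group); filled symbols passed the threshold. SMAD3 and TGFBI are filled in every setting with siSRSF1-2, and with siSRSF1-3 the filled symbols outside the diamonds are those without siSRSF1-3 replicate 3 for 5 members and without blank replicate 1 for TGFBI.

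None of the other SMAD members passed the threshold when all libraries were used. SMAD2 (ENSG00000175387, chromosome 18, 47808957 to 47931146, minus strand), the partner of SMAD3 as a receptor target, had FPKM of 2.01, 2.15 and 2.16 in blank cells, 2.52, 2.61 and 2.61 with siSRSF1-2, 2.36, 2.16 and 2.53 with siSRSF1-3, and 2.97, 2.58 and 3.07 in OE-LINC01134. It was the member with the smallest range, 1.53-fold between its lowest and highest library. The siSRSF1-2 and OE-LINC01134 libraries lay above every blank library, with log2 fold changes of 0.28 (SE 0.0856, adjusted p = 0.0577 from limma) and 0.43 (SE 0.142, adjusted p = 0.131).

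SMAD4 (ENSG00000141646, chromosome 18, 51028394 to 51085045, plus strand), the common partner of the receptor-activated SMADs, had FPKM of 2.65, 2.09 and 2.12 in blank cells, 2.11, 2.22 and 2.09 with siSRSF1-2, 1.71, 1.62 and 2.14 with siSRSF1-3, and 3.08, 2.97 and 3.04 in OE-LINC01134. The OE-LINC01134 libraries were above all others (0.40, SE 0.150, adjusted p = 0.158 from limma). With the siRNAs the groups overlapped the blank cells, at -0.09 (SE 0.121, adjusted p = 0.627) and -0.31 (SE 0.216, adjusted p = 0.343).

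SMAD7 (ENSG00000101665, chromosome 18, 48919853 to 48952052, minus strand) recruits ubiquitin ligases to the type I receptor and is itself a target of the pathway. Its FPKM was 7.61, 5.94 and 5.497 in blank cells, 4.02, 3.97 and 4.33 with siSRSF1-2, 2.46, 3.52 and 4.35 with siSRSF1-3, and 3.54, 7.85 and 3.64 in OE-LINC01134. All 6 siRNA libraries lay below the blank libraries. The log2 fold change was -0.60 with siSRSF1-2 (SE 0.132, adjusted p = 0.0214 from limma), past the p and not the fold, and -0.89 with siSRSF1-3 (SE 0.256, adjusted p = 0.10). In OE-LINC01134, replicate 2 was as high as the highest blank library and the others were below all blank libraries (-0.42, adjusted p = 0.429). Without that replicate it was -0.79 (adjusted p = 0.0260), and without blank replicate 1 it was -0.29 (adjusted p = 0.618).

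Over the 10 members, the median log2 fold change was -0.40 with siSRSF1-2, -0.90 with siSRSF1-3 and -0.22 in OE-LINC01134, where the medians over all genes tested were 0.02, -0.01 and 0.05. The groups did not overlap for 5 members with siSRSF1-2 (49.5% of all genes), 6 with siSRSF1-3 (37.2% of all genes) and 5 in OE-LINC01134 (30.6% of all genes). Between the siRNAs they did not overlap for 2 (54.6% of all genes), TGFB2 and TGFBR1, both lower with siSRSF1-3. Of the members, 9 of 10 had a negative sign with each siRNA, SMAD2 being the exception in both, and 7 of 10 in OE-LINC01134. These signs share the blank libraries and depend on the scaling. Scaling to the read total of each library moved the median over all genes with siSRSF1-3 from -0.01 to -0.26, and equal FPKM sums moved it to -0.43. Over the other settings SMAD2 ranged from -0.01 to 0.41 with siSRSF1-2 and from -0.27 to 0.48 with siSRSF1-3. The signs of SMAD3 and TGFBI did not change in any setting with either siRNA.

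A further 100 genes of the pathway were listed by role from gene function, with earlier results of these data known. Of these, 80 were tested, the other 20 having a mean below 0.5 FPKM. With siSRSF1-2, 4 of 80 were called, all lower (all genes tested: 4.95%). With siSRSF1-3, 4 were called, all lower (all genes: 1.26%). In OE-LINC01134, 2 were higher and 2 lower (all genes: 0.85%), and between the siRNAs 0 were called by limma (all genes: 0.0855%). With an unadjusted limma p below 0.05 and the fold kept, 6, 16, 12 and 9 of the 80 passed in the 4 comparisons. The shares over all genes tested were 6.49%, 14.8%, 7.45% and 16.4%. The medians over the 80 genes were -0.24, -0.34, -0.17 and -0.17 in the 4 comparisons. These counts moved with single libraries, from 2 to 7 with siSRSF1-2, from 0 to 18 with siSRSF1-3 and from 0 to 14 in OE-LINC01134. The calls over all genes tested moved with them, from 534 to 1188, from 0 to 4184 and from 1 to 1540.

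SMAD6, an inhibitory SMAD that acts mainly on the bone morphogenetic protein (BMP) branch, was the 1 gene of this list called with both siRNAs. Its FPKM was 2.18, 1.27 and 1.27 in blank cells, 0.329, 0.253 and 0.254 with siSRSF1-2, 0.238, 0.322 and 0.236 with siSRSF1-3, and 0.560, 2.52 and 0.547 in OE-LINC01134. It fell by 2.11 in log2 units with siSRSF1-2 (SE 0.267, adjusted p = 0.00422 from limma) and by 2.16 with siSRSF1-3 (SE 0.358, adjusted p = 0.0477). In OE-LINC01134 its replicate 2 was again apart from the others, as it was for SMAD7. The siSRSF1-2 call of SMAD6 was made in 6 of 6 fits with a library left out and that with siSRSF1-3 in 1 of 6. Over the other settings its log2 fold change ranged from -2.45 to -0.99 with siSRSF1-2 and from -2.52 to -1.01 with siSRSF1-3, the smallest sizes being those with a pseudocount of 1.

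ID1, a BMP target that blocks differentiation factors, had FPKM of 138, 129 and 129 in blank cells, 58.7, 54.1 and 52.7 with siSRSF1-2, and 158, 130 and 74.4 with siSRSF1-3. It fell by 1.26 in log2 units with siSRSF1-2 (SE 0.0658, adjusted p = 0.000698 from limma), and with siSRSF1-3 it was at -0.20 (adjusted p = 0.686). Between the siRNAs it was 1.06 higher with siSRSF1-3 (SE 0.290, adjusted p = 0.0808), which did not pass. NOG, a secreted BMP antagonist, fell by 1.75 with siSRSF1-2 (SE 0.362, adjusted p = 0.0179), with 30.5, 13.1 and 11.4 FPKM in blank cells and 5.15, 4.78 and 4.69 FPKM with the siRNA. The NOG call was made in 3 of 6 fits with a library left out, with values of -2.02 to -1.31, the latter without blank replicate 1. NOX4, an oxidase gene induced by TGF-beta, was at 1.07 lower with siSRSF1-2 (adjusted p = 0.0409), and this call was lost in 6 of 6 fits with a library left out. Its mean FPKM was 0.674 in blank cells, 0.265 with siSRSF1-2, 0.505 with siSRSF1-3 and 0.571 in OE-LINC01134. It thus lay at the filter of 0.5 FPKM, with blank cells as its highest group. Its entry into the test was therefore not independent of this difference, and nothing is read from the call.

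With siSRSF1-3, LTBP1, which holds latent TGF-beta in the matrix, fell by 1.71 in log2 units (SE 0.288, adjusted p = 0.0483 from limma). Its FPKM was 12.6, 9.14 and 9.26 in blank cells, 5.09, 5.35 and 5.34 with siSRSF1-2 and 2.34, 2.64 and 4.55 with siSRSF1-3. With siSRSF1-2 it was at -0.95 (adjusted p = 0.00615), just short of the fold. All 9 latency and activation genes tested had a negative log2 fold change with each siRNA, with medians of -0.60 and -0.84, where 48.3% and 50.7% of all genes tested had a negative sign, and LTBP1 with siSRSF1-3 was the 1 call among them. These genes share the blank libraries, among which replicate 1 was the high one for LTBP1. Without it the 9 values were again negative with each siRNA, with medians of -0.49 and -0.83. The signs also depend on the scaling, and they were not counted under the other scalings. ITGAV had means of 22.5 FPKM with siSRSF1-2 and 22.9 FPKM in blank cells, with overlap. Equal FPKM sums moved the median over all genes from 0.02 to 0.15 with siSRSF1-2. Of the 18 intracellular regulators, 11 had a positive sign with siSRSF1-2 and 7 with siSRSF1-3. TPM1, an actin-binding gene induced by TGF-beta, fell by 1.71 with siSRSF1-3 (adjusted p = 0.0456), from 8.45, 4.82 and 5.06 FPKM to 1.38, 1.95 and 1.96 FPKM. Each of these siSRSF1-3 calls was made in 1 of 6 fits with a library left out, that without siSRSF1-3 replicate 3.

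CDKN2B, a cell cycle inhibitor gene induced by TGF-beta, had FPKM of 2.04, 3.27 and 2.97 in blank cells, 1.38, 1.73 and 1.62 with siSRSF1-2, 0.603, 0.572 and 0.846 with siSRSF1-3, and 0.0340, 0.361 and 0.0517 in OE-LINC01134. It fell by 1.88 in log2 units with siSRSF1-3 (SE 0.282, adjusted p = 0.0453 from limma) and its log2 fold change in OE-LINC01134 was -3.73 (SE 0.514, adjusted p = 0.0402). The OE-LINC01134 libraries held 4, 40 and 6 reads, and the log2 fold change there was -1.71 with a pseudocount of 1 and -4.90 with voom on the reads. The siSRSF1-3 call of CDKN2B was made in 1 of 6 fits with a library left out, that without siSRSF1-3 replicate 3.

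In OE-LINC01134 the other calls were of a ligand and of 2 regulators. INHBE, a further activin subunit gene, rose by 2.64 in log2 units (SE 0.260, adjusted p = 0.0199 from limma), with 3.80, 5.41 and 5.01 FPKM in blank cells and 36.6, 20.3 and 35.7 FPKM in OE-LINC01134. INHBA, the activin subunit gene among the members, had a log2 fold change of -0.92 in the same comparison. SMURF1, a ubiquitin ligase that targets SMADs and receptors, rose by 1.15 (SE 0.166, adjusted p = 0.0403), from 15.3, 10.95 and 10.8 FPKM to 28.1, 24.4 and 29.0 FPKM. FKBP1A, which binds the type I receptor and holds it inactive, fell by 1.06 (SE 0.102, adjusted p = 0.0199), from 146, 155 and 158 FPKM to 70.7, 79.8 and 68.8 FPKM. Each of the 4 OE-LINC01134 calls was made in 2 of 6 fits with a library left out.

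None of the 9 other receptors and co-receptors tested was called in any comparison by limma. With siSRSF1-3, 1 of them had an unadjusted p below 0.05 and the fold (14.8% of all genes tested). The most highly expressed were ACVR1, a type I receptor for BMP and activin, and ENG, a co-receptor. ACVR1 lay between 6.24 and 12.03 FPKM over the 12 libraries. ENG had 18.1, 13.4 and 12.8 FPKM in blank cells and 8.98, 8.91 and 8.28 FPKM with siSRSF1-2, without overlap (-0.73, adjusted p = 0.0142 from limma, not past the fold).

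**Figure D4:**
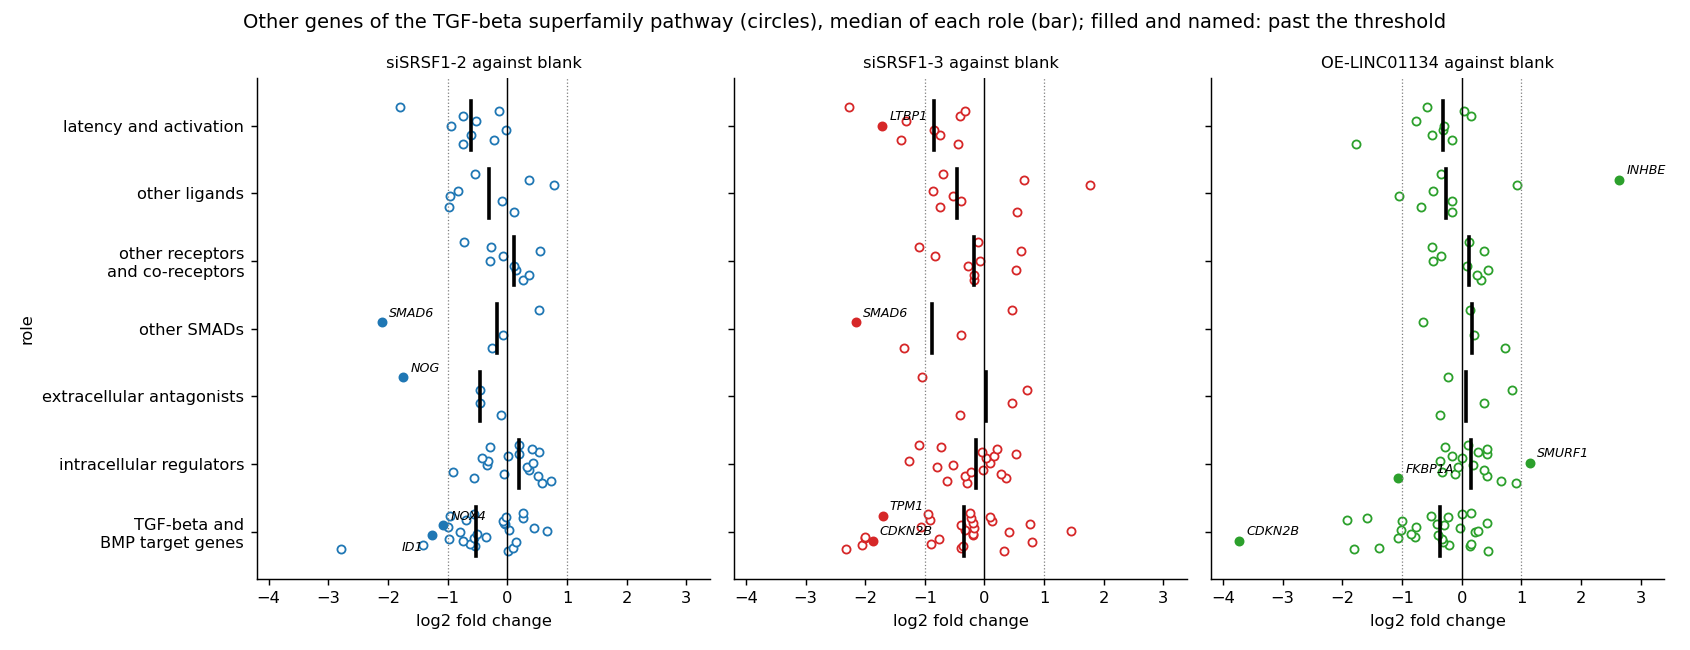
Log2 fold change (horizontal axis) of the 80 other pathway genes tested, by role (vertical axis), in the 3 comparisons with blank cells (panels); circles are genes, black bars the median of a role, and filled, named circles passed the threshold. With both siRNAs every latency and activation gene lies left of 0, and the named genes are 4 with siSRSF1-2, 4 with siSRSF1-3 and 4 in OE-LINC01134.

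TGFBI had the largest spread between group means of the members (SD 1.35 of the 4 group means of log2 values). Over the 12 libraries, the tested genes whose log2 values followed it most closely were HILPDA (hypoxia inducible lipid droplet associated, Pearson's r = 0.976), CA12 (carbonic anhydrase 12, 0.972), PLOD1 (a procollagen lysine hydroxylase, 0.969), ENPP1 (a phosphodiesterase, 0.965) and PGK1 (phosphoglycerate kinase 1, 0.963). These correlations are a description over 12 libraries that fall into 4 groups and share their scaling. HILPDA had a mean of 7.51 FPKM in blank cells, 3.22 with siSRSF1-2, 3.37 with siSRSF1-3 and 4.06 in OE-LINC01134. CA12 went from a mean of 3.98 FPKM in blank cells to 0.202, 0.122 and 0.506 FPKM in the same order.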

How the data were processed

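The 12 libraries were grouped by their GEO titles into 4 groups of 3. The sample labels give mouse as the organism, but the table lists human Ensembl genes. The authors deposited FPKM per gene with gene lengths and coordinates, and the aligner, counter and human build are not given in the sources used here. The labels and the study's methods name different library kits. FPKM times length gave whole reads within 0.01 for 100% of values, and showed that the deposited FPKM carry a scaling between libraries. The library size it implies was 0.712 and 0.888 of the own read total in siSRSF1-3 replicates 1 and 2, and 0.990 to 1.085 in the other libraries. FPKM summed to 611084 and 410612 in these replicates and to 281051 to 324607 in the others. The methods place transfection in another osteosarcoma line, while the labels give U2OS.

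Each comparison was fitted in limma 3.58.1 (R 4.3.3, eBayes with trend) on log2(FPKM + 0.1) of 3 + 3 libraries. Of 58735 genes, 17538 had a mean of 0.5 FPKM or more and were tested. Calls needed an adjusted p (Benjamini-Hochberg) below 0.05 and a log2 fold change above 1 in size. Fold changes on this scale understate those of low genes. An exact permutation test of 3 against 3 libraries cannot give a p under 0.1. The script was tested on simulated data. The members and lists were chosen with earlier results of these data known. Genes named were the members, SRSF1, LINC01134, the other pathway genes called in a comparison, the 2 highest of a role with none called, and the 5 genes most correlated with the member of the largest spread. Cell type markers came from lists. Alternatives were a pseudocount of 1, no filter, other scalings, one fit over all groups, voom on the reads, a length trend removed, a replicate block, averaging of the most alike libraries and the omission of each library. Splicing was not analysed here. Reads shared with paralogs or with antisense genes cannot be told apart.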

Additional observations from a re-analysis of the deposited data

How the results depend on the processing

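The log2 fold changes of the members kept their sign where they were past the threshold, and no called value reversed in the settings run. With siSRSF1-2 the 2 members called remained in all settings but 1, the averaging of the most alike libraries. That averaging leaves fewer samples and called 0 members and 0 other pathway genes in each comparison with blank cells. Of all genes tested it called 0 with siSRSF1-2, 0 with siSRSF1-3 and 1 in OE-LINC01134, so its losses are not particular to these genes. The other pathway genes called with siSRSF1-2 numbered 4, and 2 with a pseudocount of 1 or with no filter. With siSRSF1-3 the 2 members called became 0 with no filter, 1 scaled to own read total, 0 with FPKM rescaled to the same sum, and 0 without blank replicate 1 and siSRSF1-3 replicate 1 together, a setting chosen after seeing the data. In the same settings the 4 other pathway genes became 0 in each, and they were 16 in one fit over all 4 groups and 8 with voom. Over all genes, the 4 settings with losses called 116, 69, 1 and 0, the one fit 2422 and voom 587. In OE-LINC01134, one fit over all 4 groups called 1 member and 9 other pathway genes, no filter called 1 of the other genes, and leaving out blank replicate 1 and OE-LINC01134 replicate 2 together, also chosen after seeing the data, called 3 members and 19 other genes. Between the siRNAs, one fit over all 4 groups called 9 other pathway genes, where the pairwise fit with all libraries called 0. Of all genes tested, these fits called 2731 and 15. The cause of these changes was not tested.

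Leaving out each library in turn gave 2 members in every fit with siSRSF1-2, 0 to 5 with siSRSF1-3, 0 to 1 in OE-LINC01134 and 0 to 2 between the siRNAs, and 2 to 7, 0 to 18, 0 to 14 and 0 to 20 other pathway genes. The highest counts came without siSRSF1-3 replicate 3, without OE-LINC01134 replicate 2, or, with siSRSF1-2, without blank replicate 1 (which gave 13 in OE-LINC01134). Without siSRSF1-3 replicate 1 or 2 or blank replicate 2 or 3, 0 members were called with siSRSF1-3, and without blank replicate 1 the count was 1. In the same order, these fits called 13, 0, 0, 0 and 29 of all genes tested. The numbers of the replicates did not pair the samples: 12 correlations of same-numbered libraries lay between -0.08 and 0.04, and 2 were best with their own number. With a replicate block, 2 members and 3 other genes were called with siSRSF1-2, and 0 members and 0 other genes with siSRSF1-3 and in OE-LINC01134. The block called 681, 0 and 4 of all genes tested in these comparisons. With FPKM rescaled to the same sum, the median of all genes tested moved to 0.15 with siSRSF1-2, 0.14 in OE-LINC01134 and -0.57 between the siRNAs. Depth limits few values here: the lowest member held 64 reads in a library.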
